A study of Mus musculus with 7 samples.

Results

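The genes described here encode the mechanotransduction channel and the tip link of the inner ear hair cell, with the Usher proteins that anchor them. They are Tmc1, Tmc2, Tmie, Lhfpl5, Cib2, Cdh23, Pcdh15, Ush1c, Ush1g and Clrn1, taken by gene name from the deposited count table. All 10 had a row there, of 54532 genes in all. The libraries, 7 in all, are bulk RNA-seq of mouse cochlear epithelium at embryonic day 16. Of these, 4 were labelled as knockout of Brg1, the ATPase of the BAF chromatin remodelling complex that Smarca4 encodes, and 3 as control. Both groups were labelled untreated. The labels and notes used here give no Cre driver, no deleted exons and no number of embryos per library. They also do not say whether replicates are separate animals, and p-values therefore speak only of the spread among these libraries.

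Hair cells turn sound into an electrical signal by deflection of the stereocilia, the actin-filled rods of the hair bundle. A tip link runs from each shorter stereocilium to the side of its taller neighbour. Cadherin 23 forms its upper part and protocadherin 15 its lower part. The lower end pulls on a channel complex built from TMC1 or TMC2 with TMIE, LHFPL5 and CIB2, and the upper end is held by harmonin and SANS, the products of Ush1c and Ush1g. In the mouse the bundle forms before birth in the cochlea, and transduction currents are acquired around and after birth. Loss of most of these genes causes deafness in mouse and human.

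Library totals lay between 16098269 and 18872132 counts. Smarca4 fell, with all 4 knockout libraries below all 3 controls, at a log2 fold change of -0.56 ± 0.09 (SE; edgeR quasi-likelihood test, adjusted p = 0.00338; exact two-sided permutation p = 0.0286, the smallest that 4 against 3 libraries allow). The fractions of the deposited values split the libraries into a larger batch (knockout replicates 1, 2 and 3 with control replicates 1 and 2) and a smaller one (knockout replicate 4 with control replicate 3). In the 17795 genes above 0 in every library whose fractions differed, each batch had its own fraction, and no label says why. Genes listed at 0 in a library, such as Tmc2, were not part of that check. Differences of counts inside a batch do not depend on any constant added to it, whereas fold changes do. The order of the libraries within the batches is therefore given beside the results. That order is in counts scaled to library size (CPM), so it is not wholly free of such a constant and can differ from the order in counts. For Cib2 the smaller pair was at 37.2 CPM in knockout and 35.3 CPM in control, but at a count difference of -21.0, knockout minus control. Genes that mark epithelium, such as Epcam, were present in every library, and so were genes of mesenchyme, neurons and glia, so the libraries hold tissue other than the sensory epithelium. In such bulk samples fewer cells of a type and less RNA per cell cannot be told apart.

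Of the 10 genes, 9 passed the filter on low counts and were tested, and 1 of these, Tmie, passed at an adjusted p below 0.05. It was higher in the knockout. In all, 1.94% of the 17341 genes tested were called higher and 4.87% lower, together 6.82%. By edgeR 0 of the 9 were called lower. At an unadjusted p below 0.05, 2 (Tmie and Cdh23) were higher and 1 (Clrn1) lower, beside 9.39% and 11.8% of all genes. Clrn1 was called lower by DESeq2, which called 6.44% of the genes it could adjust as lower. Called or not, 7 of the 9 lay above 0 and 2 below, beside 9220 above and 8121 below among all genes tested. The median log2 fold change of the 9 was 0.36, beside 0.02 over all genes tested. Knockout and control libraries were fully apart in 2 of the 9, Tmie (higher) and Clrn1 (lower), a share near that of all genes tested, where 20.7% had groups apart (9.27% higher and 11.5% lower). In 3 of the 9, these and Pcdh15, the groups were apart in the larger batch and the smaller one went the same way, beside 24.8% of all genes. For Pcdh15 the smaller pair was nearly tied. Within the larger batch alone 0 of the 9 were called by edgeR in either direction, where 1.25% of genes were called higher and 2.49% lower, and 2 of the 9 were higher and 2 lower there at an unadjusted p below 0.05, beside 7.36% and 9.71% of all genes.

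**Figure D1:**
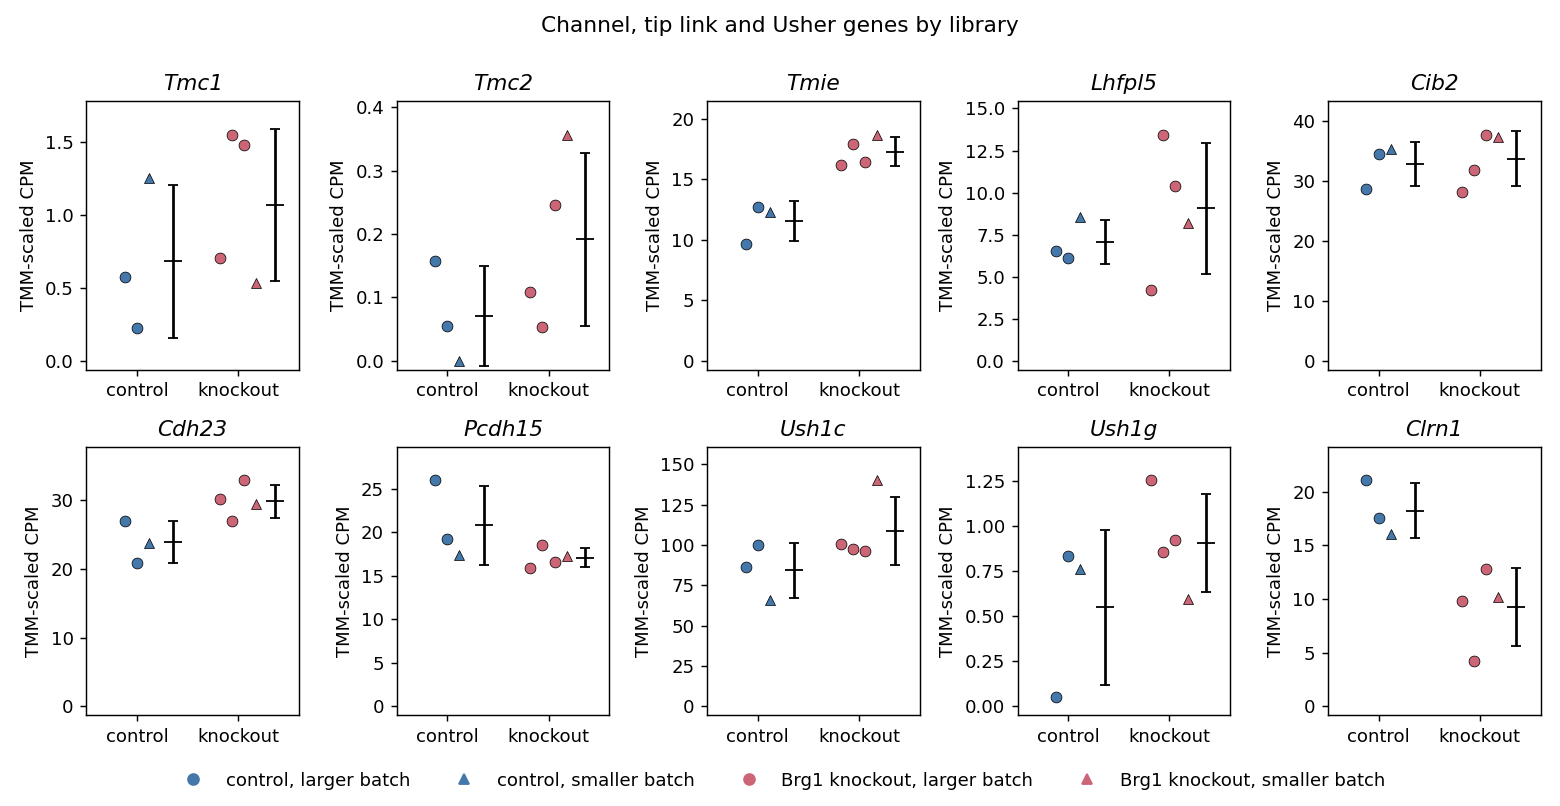
CPM, the counts per library scaled by TMM (y axis), of each of the 10 genes in the 3 control and 4 knockout libraries; points are libraries, circles the larger and triangles the smaller batch, and bars the mean ± SD. Tmie lies between 16.1 and 18.7 CPM in the knockout libraries, above all controls, and Clrn1 between 4.23 and 12.8 CPM, below all controls.

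Levels of different genes can be compared only per length, on the FPKM scale. In controls Cib2 stood highest at 22.3 ± 2.22 FPKM (SD, n = 3), next to Ush1c at 21.4 ± 4.50 FPKM. Clrn1 followed at 4.62 ± 0.721, Tmie at 3.63 ± 0.488 and Lhfpl5 at 2.88 ± 0.503 FPKM. The tip link cadherins were lower, Cdh23 at 1.37 ± 0.190 and Pcdh15 at 0.857 ± 0.200 FPKM. Their level is set over exon lengths of 16939 and 23773 bases, the sum over all annotated isoforms, which lowers FPKM where shorter isoforms dominate. Tmc1, Ush1g and Tmc2 were at the bottom, at a mean of 0.163, 0.161 and 0.0217 FPKM. In that order Cib2 and Ush1c overlapped in range, as did Clrn1 with Tmie, Tmie with Lhfpl5, Tmc1 with Ush1g and Ush1g with Tmc2, and the other neighbours were apart. In the knockout libraries Ush1c (27.3 ± 4.84 FPKM, SD, n = 4) and Cib2 (22.8 ± 2.87) stayed on top, Tmie (5.42 ± 0.323) and Lhfpl5 (3.68 ± 1.59) came before Clrn1 (2.33 ± 0.900), and the order below was Cdh23 and Pcdh15, then Ush1g, Tmc1 and Tmc2.

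**Figure D2:**
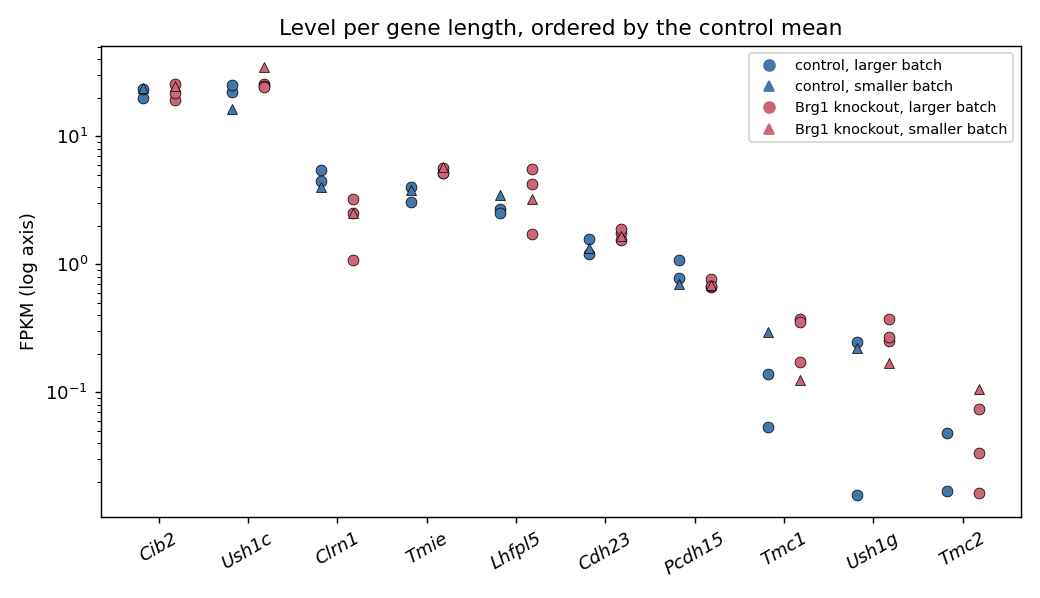
FPKM (log axis) of the 10 genes per library, ordered by the control mean, with controls to the left and knockouts to the right of each name; circles are the larger and triangles the smaller batch, and Tmc2 in control replicate 3, listed at 0, is not drawn. Cib2 and Ush1c lie near 20 FPKM or above in most libraries, and Tmc1, Ush1g and Tmc2 below 0.4 FPKM in all.

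Among the channel genes, Tmie (ENSMUSG00000049555, chromosome 9, 110865711 to 110880113, mm10, reverse strand) encodes a small membrane protein that the channel complex needs to conduct. Knockout replicates 1 to 4 were at 16.1, 17.9, 16.4 and 18.7 CPM. In control replicates 1 to 3 it was at 9.62, 12.7 and 12.3 CPM. Every knockout library lay above every control, by a gap larger than the spread within either group. The means were 17.3 ± 1.2 CPM (SD, n = 4) and 11.5 ± 1.67 CPM (SD, n = 3), so the knockout stood at 149.8% of control. On the log2 scale this was 0.58 ± 0.14 (SE), with an adjusted p of 0.0265 by edgeR and a 95% interval from 0.28 to 0.88. In deposited counts the knockout mean exceeded the control mean by 92.5 in the larger batch, and knockout replicate 4 exceeded control replicate 3 by 89.0 in the smaller one. The larger batch alone gave 0.59 ± 0.17, with an adjusted p of 0.107. The call was also lost on leaving out knockout replicate 2 or 4 (adjusted p = 0.0691 and 0.0629) or control replicate 1 or 3 (adjusted p = 0.105 and 0.0521), with log2 fold changes of 0.57, 0.55, 0.46 and 0.63.

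The promoter of Tmie is printed because this gene alone passed the test and because its start lies head to head with another gene. Als2cl, on the opposite strand (chromosome 9, 110879870 to 110900530), shares 244 exon bases with Tmie, of 3094 exon bases in all. Whether reads were counted by strand is not given, so reads from the shared bases cannot be assigned. Als2cl counted 18.3, 26.0, 26.3 and 28.5 CPM in the knockouts, and 17.9, 21.6 and 14.5 CPM in the controls (log2 fold change 0.46 ± 0.17, adjusted p = 0.145). Its groups overlapped, unlike those of Tmie, and both genes were lowest in a control library. The RefSeq window (chr9:110880024-110880323, GRCm38.p6, reverse strand) covers 250 bases before the start and 50 from it. Capitals mark the E-box CAGCTG, whose first base lies at -206 from the start, and the GC box (GGGCGG or its reverse complement) at -180, -106 and -86.
Tmie: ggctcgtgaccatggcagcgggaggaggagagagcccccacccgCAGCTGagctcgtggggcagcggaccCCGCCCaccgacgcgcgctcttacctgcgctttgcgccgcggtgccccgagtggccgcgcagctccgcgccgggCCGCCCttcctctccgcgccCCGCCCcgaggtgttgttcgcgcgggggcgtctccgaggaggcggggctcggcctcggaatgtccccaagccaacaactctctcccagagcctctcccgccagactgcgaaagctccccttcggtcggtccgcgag
The window is 73.7% G and C with 39 CG dinucleotides, where the median of 32851 promoter windows is 52.7% and 7. CAGCTG was found in 16.3% and the GC box in 35.7% of all windows. Of the 8 genes with a window, CAGCTG was in 3 (Tmie, Lhfpl5 and Pcdh15) and the GC box in 4. A match is a description of letters and shows no binding.

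Tmc1 and Tmc2 encode the pore-forming subunits, and both were close to the limit of detection. Tmc1 (ENSMUSG00000024749, chromosome 19, 20783458 to 20954202, reverse strand) was at 0.709, 1.55, 1.48 and 0.535 CPM in the knockout libraries and at 0.575, 0.222 and 1.26 CPM in the controls. The groups overlapped (log2 fold change 0.64 ± 0.56, SE; 95% interval -0.58 to 1.86; adjusted p = 0.568). The batches went opposite ways: in the larger one all 3 knockout libraries lay above both controls (1.61 ± 0.59, adjusted p = 0.201), and in the smaller one the knockout lay below the control. Leaving out control replicate 3 gave 1.39 and leaving out control replicate 2 gave 0.21, neither of them called. Tmc2 (ENSMUSG00000060332, chromosome 2, 130195194 to 130264445, forward strand) had deposited counts of 2.25, 1.25, 4.25 and 5.75 in the knockout and of 3.25, 1.25 and 0 in the control libraries. These lie at or near the floor of 3 counts used here, so Tmc2 did not pass the filter and no difference was detectable at this depth.

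Lhfpl5 (ENSMUSG00000062252, chromosome 17, 28575641 to 28585679, forward strand) encodes a membrane protein that couples the tip link to the channel. Knockout replicates 1 to 4 were at 4.20, 13.4, 10.4 and 8.20 CPM. In the controls it was at 6.53, 6.10 and 8.57 CPM. Knockout replicate 1 lay below all controls and replicates 2 and 3 above, and the difference of 0.36 ± 0.33 did not pass (adjusted p = 0.596). Leaving out knockout replicate 1 or 2 moved it to 0.60 and 0.10. Cib2 (ENSMUSG00000037493, chromosome 9, 54544794 to 54560218, reverse strand), a calcium-binding partner of the TMC proteins that many tissues make, was at 28.04, 31.7, 37.6 and 37.2 CPM in knockout and at 28.5, 34.5 and 35.3 CPM in control. The groups covered the same range, with a log2 fold change of 0.04 ± 0.12 (95% interval -0.23 to 0.31; adjusted p = 0.904). Its sign was negative on leaving out knockout replicate 3 or 4 or control replicate 1 and under either replicate block, so it has no direction.

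**Figure D3:**
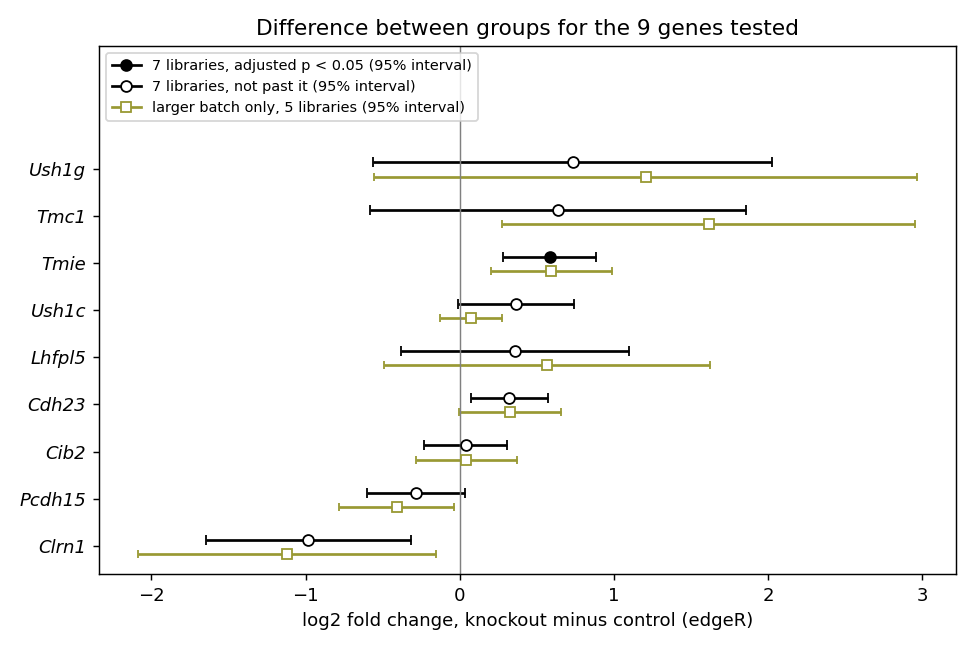
Log2 fold change, knockout minus control, of the 9 genes tested by edgeR with 95% intervals; circles use 7 libraries (filled where the adjusted p was below 0.05) and squares the 5 libraries of the larger batch. Tmie is the filled point at 0.58, Clrn1 lies lowest at -0.98, and Ush1c moves from 0.37 to 0.07 in the larger batch alone.

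The cadherins of the tip link lay on opposite sides of 0, and neither passed the test. Cdh23 (ENSMUSG00000012819, chromosome 10, 60302748 to 60696490, reverse strand) was at 30.1, 26.9, 32.9 and 29.4 CPM in knockout and at 26.9, 20.8 and 23.8 CPM in control. Knockout replicate 2 and control replicate 1 met at the same level, and the other libraries were apart. The log2 fold change was 0.32 ± 0.11 (95% interval 0.07 to 0.57; unadjusted p = 0.0158 and adjusted p = 0.124 by edgeR). Leaving out control replicate 2 lowered it to 0.21. Pcdh15 (ENSMUSG00000052613, chromosome 10, 73099342 to 74649737, forward strand) was at 15.9, 18.6, 16.6 and 17.3 CPM in knockout and at 26.0, 19.2 and 17.4 CPM in control. Control replicate 1 was the high library, the groups overlapped, and the log2 fold change was -0.29 ± 0.14 (95% interval -0.60 to 0.03; adjusted p = 0.284). Without control replicate 1 it was -0.10. GENCODE M21 lists 41 transcripts for Pcdh15 and 16 for Cdh23, and gene-level counts do not tell these isoforms apart.

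Because both proteins join in a single link, the ratio of their FPKM was also taken in each library, a measure that does not depend on library depth and that was chosen after the values were seen. Cdh23 over Pcdh15 was 2.65, 2.03, 2.78 and 2.38 in knockout replicates 1 to 4. In control replicates 1 to 3 it was 1.45, 1.52 and 1.92. The 4 knockout libraries lay above the 3 controls, in the larger batch and in the smaller one. The means were 2.46 ± 0.331 (SD, n = 4) and 1.63 ± 0.254 (SD, n = 3). No test is given for it, and the ratio says nothing about isoforms or protein.

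**Figure D4:**
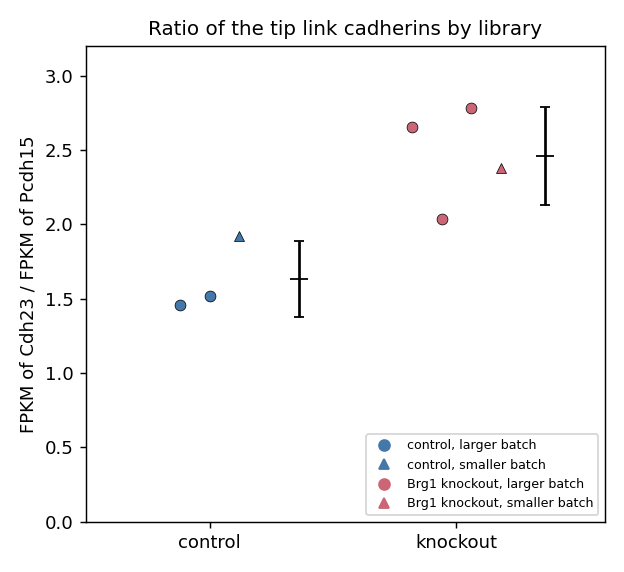
Ratio of the FPKM of Cdh23 to that of Pcdh15 (y axis from 0) in each library, with the mean ± SD of each group; circles are the larger and triangles the smaller batch. Controls lie between 1.45 and 1.92 and knockouts between 2.03 and 2.78.

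At the upper end of the link, Ush1c (ENSMUSG00000030838, chromosome 7, 46195350 to 46238503, reverse strand), which encodes the scaffold protein harmonin, had the highest CPM of the 10 genes. It was at 100.3, 97.7, 96.3 and 139.9 CPM in knockout and at 86.6, 99.9 and 65.9 CPM in control. In the larger batch the libraries of both groups lay close together (0.07 ± 0.09, adjusted p = 0.760), and in the smaller batch knockout replicate 4 was the highest and control replicate 3 the lowest of all 7. The log2 fold change over all libraries was 0.37 ± 0.17 (95% interval -0.01 to 0.74; adjusted p = 0.246). Without knockout replicate 4 it was 0.22, and without control replicate 3 it was 0.21. Knockout replicate 4 was also the highest and control replicate 3 the lowest of the 7 libraries in some other genes. This held for 9 of 20 tested genes listed with the channel and tip link and for 7 of 19 hair cell markers. The share over all genes was not counted, so these counts are not read as a trait of either list. In 5 genes of each list knockout replicate 4 lay below control replicate 3. Of the tested channel, tip link and Usher genes it did so for Tmc1, Lhfpl5, Pcdh15 (nearly tied), Ush1g and Clrn1. It lay above for Tmie, Cib2, Cdh23 and Ush1c. Otof, Loxhd1 and Strc were listed at 0 in control replicate 3, and Myo15 was at 1.47 CPM there and between 14.1 and 33.6 CPM in the other 6 libraries. In knockout replicate 4 Otof (38.0 CPM), Loxhd1 (15.8) and Myo15 (33.6) were at their highest. These 4 genes were picked with their values in view, and the part of the batch or of these libraries in the level of Ush1c was not tested. Gm9860, an unconfirmed transcript model on the other strand that shares 120 exon bases with Ush1c, was at a log2 fold change of 0.06 ± 0.20 (adjusted p = 0.902).

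Ush1g (ENSMUSG00000045288, chromosome 11, 115315192 to 115322041, reverse strand), the gene of the scaffold SANS, was at 1.25, 0.856, 0.925 and 0.594 CPM in knockout and at 0.0523, 0.832 and 0.764 CPM in control. Control replicate 1 stood far below the rest, at a deposited count of 0.917, under the floor of 3 counts. The log2 fold change was 0.73 ± 0.59 (95% interval -0.56 to 2.02; adjusted p = 0.530). Without that library it was 0.18. The batches went opposite ways, as for Tmc1. Knockout replicates 1, 2 and 3 lay above both controls of the larger batch. Of these, knockout replicate 2 (0.856 CPM) was close to control replicate 2 (0.832 CPM). Knockout replicate 4 (0.594 CPM) lay below control replicate 3 (0.764 CPM) in the smaller batch.

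Clrn1 (ENSMUSG00000043850, chromosome 3, 58844028 to 58885340, reverse strand) encodes clarin 1, a membrane protein of hair bundles and synapses whose loss causes Usher syndrome type 3. Knockout replicates 1 to 4 were at 9.82, 4.23, 12.8 and 10.2 CPM. In control replicates 1 to 3 it was at 21.1, 17.6 and 16.04 CPM. Every knockout library lay below every control, in the larger batch and in the smaller one, and the knockout mean (9.26 ± 3.60 CPM, SD, n = 4) was 50.8% of the control mean (18.2 ± 2.57 CPM, SD, n = 3). This was the largest difference among the 9 genes by size, at a log2 fold change of -0.98 ± 0.30 (95% interval -1.64 to -0.32), and it missed the threshold (unadjusted p = 0.00823, adjusted p = 0.0849 by edgeR). DESeq2 gave -0.99 ± 0.27 with an adjusted p of 0.00544. Without knockout replicate 2, the lowest library, the value was -0.74 and passed by edgeR (adjusted p = 0.0267), and in the larger batch alone it was -1.12 ± 0.40 (adjusted p = 0.223).

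Neuron and glia genes were also lower in the knockout libraries. Of 10 neuron genes 7 were lower and 0 higher by edgeR (0 higher at an unadjusted p below 0.05 and 0 by DESeq2), and their summed level lay between 505 and 764 CPM in knockout and between 1517 and 1729 CPM in control. Of 6 glia genes 2, Foxd3 and Cdh19, were lower, with sums of 569.5 to 744 and of 772 to 893 CPM. Over all genes tested edgeR called 4.87% lower and 1.94% higher. With batch as a covariate 6 of the 7 neuron calls and 1 of the 2 glia calls held, and in the larger batch alone 5 and 1. Within the groups the order was not shared throughout. Knockout replicate 2 had the lowest Clrn1 and the lowest neuron sum of the 7, but the lowest glia sum was in knockout replicate 4, and control replicate 3 had the lowest Clrn1 of the controls with the highest neuron and glia sums. All 10 neuron genes were above 0 in every library. The part of these cells in the level of Clrn1 was not tested.

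The promoter of Clrn1 is printed beside that of Tmie as the other gene whose groups did not overlap. Its RefSeq window (chr3:58885163-58885462, GRCm38.p6, reverse strand) holds the CCAAT box at -196 and the E-box CAGATG, read on the other strand, at -140, both in capitals.
Clrn1: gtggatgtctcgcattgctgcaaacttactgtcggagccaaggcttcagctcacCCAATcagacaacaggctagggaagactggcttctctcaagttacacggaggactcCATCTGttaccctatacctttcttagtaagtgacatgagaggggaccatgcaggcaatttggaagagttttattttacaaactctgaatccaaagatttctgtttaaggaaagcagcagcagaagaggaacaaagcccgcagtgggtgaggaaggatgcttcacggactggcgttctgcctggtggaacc
It is 48.7% G and C with 6 CG dinucleotides, close to the medians of all windows and far below the Tmie window. CCAAT was found in 37.4% and CAGATG in 17.2% of all windows. Among the 8 genes the GC share ran from 42.0% in Tmc1 to the value of Tmie, with Cib2 at 71.3%, Lhfpl5 at 70.7%, Ush1c at 60.7%, Cdh23 at 54.0% and Pcdh15 at 50.7%.

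Other genes listed with the channel and the tip link were mostly not called. Of the 21 on this list 20 were tested. It holds bundle links, their anchors and motors, and also other genes, among them a calcium pump and a separate mechanosensitive channel. Espn, an actin bundler, was the 1 that rose (16.7 to 22.6 CPM in knockout, 9.11 to 12.5 CPM in control; 0.77 ± 0.16, adjusted p = 0.0138, and 0.0992 in the larger batch alone). None was called lower by edgeR or DESeq2, while 3 were lower and 4 higher at an unadjusted p below 0.05. The median of the 20 was 0.30. Myo7a, the motor that binds harmonin and SANS, was at 0.49 ± 0.22 (adjusted p = 0.236), and Myo6 and Vezt, the highest of the list in CPM, which is not scaled by length, were at 0.09 ± 0.09 and -0.09 ± 0.08. Tomt, which carries TMC proteins to the bundle, was at 0.93, 1.55, 1.48 and 1.72 CPM in knockout and at 0.99, 0.72 and 0.27 CPM in control (1.09 ± 0.43, adjusted p = 0.165). It shares 1981 exon bases with Anapc15 on the opposite strand (mean count 178), and reads from the shared bases cannot be assigned. Myo7a and Tomt were named after their values were seen.

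Of 16 paralogues of the channel genes and of Clrn1, 13 were tested, 1 was higher and 1 lower, with a median of 0.01. Over all genes tested 1.94% were called higher and 4.87% lower. Lhfpl4, a relative of Lhfpl5 that serves GABA receptors at inhibitory synapses, fell, lying between 8.99 and 16.8 CPM in knockout and between 25.0 and 34.1 CPM in control (-1.33 ± 0.20, adjusted p = 0.00364). Cib1 rose by 0.42 ± 0.11 (adjusted p = 0.0378, and 0.0552 in the larger batch alone). Tmc4 and Tmc6, other members of the TMC family, were at 22.3 to 29.1 and 27.1 to 37.0 CPM, and did not pass (0.15 ± 0.11 and 0.01 ± 0.12). Tmc3 was at 0.436, 0.963, 1.23 and 0.594 CPM in knockout and at 0.105, 0.222 and 0.437 CPM in control (1.64 ± 0.56, adjusted p = 0.111). It shares 3961 exon bases with Gm16638 on the opposite strand (mean count 53.0). Reads from the shared bases cannot be assigned, so the difference may not be that of Tmc3 alone. Clrn2 was at 0.382, 0.214, 0.123 and 0.594 CPM in knockout and at 1.78, 0.888 and 0.709 CPM in control (-1.76 ± 0.52, adjusted p = 0.0678), on counts of few reads. Tmc3, Tmc4, Tmc6 and Clrn2 were named after their values were seen.

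Markers of hair cells, the cells that use the channel, were set beside the 10 genes. Of 19 tested, Gfi1 (1.0 ± 0.22, adjusted p = 0.0209) and Ccer2 (0.48 ± 0.13, adjusted p = 0.0435) were the 2 that rose and Mreg was the 1 that fell (-1.14 ± 0.13), with a median of 0.48. Their summed level was 429.5 to 512 CPM in knockout and 469 to 483 CPM in control, so the groups overlapped. DESeq2 called 4 higher and 2 lower, beside 2.87% and 6.44% of all genes it could adjust. At an unadjusted p below 0.05 edgeR had 8 above and 2 below 0, beside 9.39% and 11.8% of all genes tested. At an adjusted p below 0.05 it called 1.94% of all genes tested higher and 4.87% lower. Pvalb, lower by DESeq2, weighed on the sum, at a mean of 24.1 CPM in knockout and 80.6 CPM in control. The overlap of the sums therefore does not speak for the other markers, whose sum without Pvalb was not taken. Pvalb was lowest in knockout replicate 2 (8.34 CPM), as the neuron sum was. Among the knockouts it was highest in replicate 4 (33.8 CPM), where the neuron sum was not. Which cells its lower level comes from was not tested. Ocm and Otof were at 0 in control replicate 3. Ccer2 shares 314 exon bases with Nfkbib on the opposite strand (mean count 511), and reads from the shared bases cannot be assigned. Pou4f3, a factor needed to keep hair cells alive, was at 28.8 to 32.1 CPM in knockout and at 27.0 to 28.7 CPM in control (0.12 ± 0.09, adjusted p = 0.465). Of 8 epithelial genes 4 were higher in the knockout, as Tmie was, and none lower by edgeR (5 and 0 by DESeq2 and at an unadjusted p below 0.05). The shares over all genes given for the hair cell markers stand beside these counts and those of the mesenchyme and supporting cell genes too. The 4 were Cdh1, Cldn3, Esrp1 and Grhl2, and the sum of the 8 was 1266 to 1515 CPM in knockout and 1054 to 1222 CPM in control. Within the groups the order differed. The sum was highest in knockout replicate 1, where Tmie was the lowest of the knockouts. Among controls the sum was highest in replicate 3 and Tmie in replicate 2, and both were lowest in replicate 1. Twist1, Prrx1 and Pdgfra, 3 of 7 mesenchyme genes, were also higher (sums 1647 to 2329 and 1605 to 1794 CPM), and Sox2 and Lfng, 2 of 8 supporting cell genes, were lower (418 to 482 and 466 to 503 CPM). With batch as a covariate 3 of the 4 epithelial, all 3 mesenchyme and 1 of the 2 supporting cell calls held (Cdh1 and Sox2 did not), and in the larger batch alone 3, 0 and 1. Of the 3 hair cell calls, all 3 held with the covariate and 2 in the larger batch, without Gfi1. Pvalb, Ocm and Pou4f3 were named with their values in view. The part of these cells in the level of Tmie was not tested.

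The gene whose pattern over the 7 libraries was nearest was found for each of the 9 by the root mean square difference of centred log2(CPM + 0.5), among 13865 protein-coding genes. For Tmie it was Rflnb (0.0553 log2 units; log2 fold change 0.61 ± 0.09), for Clrn1 Rcan2 (0.109; -0.92 ± 0.28), for Cdh23 Cd55 (0.0665) and for Pcdh15 Kctd7 (0.0736). For Ush1c it was Mapk15 (0.0580), for Cib2 Chrac1 (0.0468), for Tmc1 Slc16a5 (0.125), for Ush1g Sgk1 (0.157) and for Lhfpl5 Rag1 (0.156). The nearest of many genes in 7 libraries, which share depth and batch, is a description only.

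**Figure D5:**
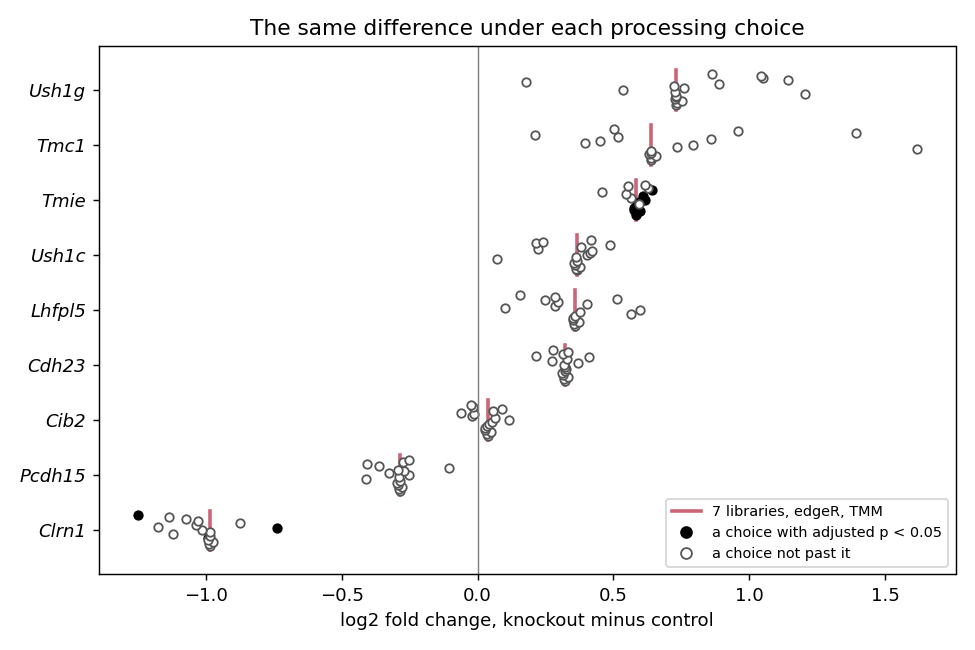
Log2 fold change of the 9 genes under each processing choice (one point each: scaling, filter, tool, rounding, batch, left-out library and replicate block), with the reported value as a vertical line; filled points had an adjusted p below 0.05. Tmie stays between 0.46 and 0.64 and Clrn1 between -1.25 and -0.74, and Cib2 falls on both sides of 0.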

How the data were processed

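The authors deposited count-scale values and FPKM for 54532 genes in 7 libraries. Per the submitters' processing notes, which give no roles, HISAT2 2.0.5, featureCounts 1.5.0-p3 and mm10 were among the tools and builds. Strand settings are not given there. The deposited counts are estimated counts that are not whole. In all 21283 genes above 0 in every library the values were multiples of 1 divided by 12 (tolerance 0.001), and in all 17795 genes where the fraction could tell libraries apart it split them into 5 and 2. Values were rounded to whole numbers. The design had assumed counts, and its test was kept. The authors' FPKM matched the rounded counts per length in at least 99.996% of values in each library (tolerance 0.01).

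The main test was the quasi-likelihood F-test of edgeR 4.0.16 under R 4.3.3 (TMM, filterByExpr, robust, 5 residual degrees of freedom, Benjamini-Hochberg adjusted p below 0.05 over 17341 genes). Any adjustment behind the fractions is not allowed for in the p-values. DESeq2 1.42.0 was an alternative, with scaling, filter, batch, left-out library and replicate block. The 3-count floor (0.159 to 0.186 CPM) covers counting error only. No 2 libraries of a group agreed within sampling noise in the larger batch (chi-square over degrees of freedom 12.6 to 20.5). GENCODE M21 held 99.8% of the IDs. Promoters are RefSeq's, for 8 of the 10 genes, and each motif was searched on both strands. Genes named were the 10, Smarca4, called genes of the lists and, where under 2 were called, the 2 most abundant, and the nearest pattern of each. Als2cl and Gm9860 were named for their overlap with a member, and Gm16638, Anapc15 and Nfkbib for their overlap with a listed gene. Epcam was named as a tissue check, and other genes named with values in view are given as such. Members and lists were chosen with earlier results of these data known.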

Additional observations from a re-analysis of the deposited data

Results flagged for a closer look

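Ush1c in knockout replicate 4 was at 139.9 CPM, far from the other 3 knockout libraries at 96.3 to 100.3 CPM. It was the 1 such case in 13 measures checked over the 4 knockout libraries (the 10 genes, Smarca4, Als2cl and the ratio of Cdh23 to Pcdh15), and chance flags about 1 in 20 groups. Groups of 3 controls were not checked in this way.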

How the results depend on the processing

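Smarca4 kept its direction and its call under all 16 alternatives (-0.62 to -0.52). The median log2 fold change of the 9 genes, 0.36 in the main test, moved by less than their median standard error in the 16 refitted alternatives (left-out libraries 0.21 to 0.40). The same held on log2(FPKM + 0.1), and the median was 0.13 on log2(FPKM + 1), both FPKM medians added after seeing the data. DESeq2 called 517 genes higher and 1 of the 9 lower. In the larger batch alone 219 genes were higher and 438 lower, and 0 of the 9 were higher. With batch as a covariate 207 genes were higher. Leaving out 1 library gave 106 to 348 genes higher, 450 to 847 lower, 0 to 1 of the 9 higher and 0 to 1 lower. Replicate numbers did not pair the libraries: deviations of same-numbered libraries correlated at -0.0969, -0.171 and 0.0524 by title and at -0.0969, -0.171 and -0.513 by description, where control replicate 3 is numbered 4. With the replicate block of the title 180 genes were higher, 0 of the 9 were higher, Tmie was at 0.55 and Cib2 at -0.018. With the replicate block of the description 74 genes were higher and 536 lower, 0 of the 9 were higher and 1 lower, Tmie was at 0.61, Clrn1 at -1.25 (adjusted p = 0.0480) and Cib2 at -0.023. Cib2 was also below 0 without knockout replicate 3, knockout replicate 4 or control replicate 1, in a range of -0.062 to 0.116 over left-out libraries. Tmie lost its call in 7 of 16 alternatives with a test. On log2(FPKM + 1) the differences of Tmc1 (0.11), Cdh23 (0.19), Pcdh15 (-0.12) and Ush1g (0.13) shrank, as the pseudocount is large beside their levels. The cause of the other differences was not tested. Depth limits Tmc2, which was near the floor of 3 counts.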
